A study of Mus musculus with 24 samples.

Results

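The tumour necrosis factor (TNF) superfamily comprises the TNF-like ligands and the receptors that bind them. A list of 43 mouse genes, 18 for ligands and 25 for receptors, was followed in hind paw, dorsal root ganglia (DRG, where the paw's sensory neurons have their cell bodies) and lumbar spinal cord. All 43 were among the 22609 gene symbols measured, and a gene was kept in a tissue when at least 10 reads were counted for it in at least 3 libraries of that tissue. By this rule 36 of the 43 were kept in any tissue, 34 in paw, 28 in DRG, 24 in spinal cord and 23 in all 3. Ltbr, which encodes the lymphotoxin beta receptor (LTβR) itself, and Ngfr were not on the list.

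The ligands are mostly trimeric proteins of the cell surface that can be shed, and they bring together receptor chains whose tails recruit either TRAF adaptors, which lead to NF-κB, or death domain adaptors, which lead to caspases. Some receptors lack a signalling tail and act as decoys. LTβR is the receptor for lymphotoxin and for LIGHT (Tnfsf14), it signals through both the classical and the non-canonical NF-κB pathway, and TNF itself is known to sensitise sensory neurons.

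RNA sequencing of polyadenylated RNA was carried out on 24 libraries from male C57 mice aged 8 to 12 weeks, in 8 groups of 3. Mice received 10 µg of an agonist antibody to LTβR per injection into the hind paw, and tissue was taken on day 6 after 2 injections or on day 1 after 1 injection. Control mice received 10 µg of IgG per injection and their paw and DRG were taken 1 day after IgG. Paw (punch biopsies of the skin) and DRG (levels L3 to L5) had day 6, day 1 and IgG groups, and spinal cord had day 6 and day 1 groups, so that cord could be compared only between days. Day 6 differed from day 1 and from the IgG group in time and in number of injections, and the labels are at odds on whether its days count from the injection that came first or from the last. The samples are numbered, but the labels do not state that they are separate animals. The p-values therefore cover the variation among these samples, which may be technical. In tissue RNA, fewer cells of a type and less RNA per cell cannot be told apart.

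Library depth, as reads assigned to genes, was 24228438 to 41037458 per library in paw, 21562694 to 34244912 in DRG and 15685843 to 26285770 in cord. Summed marker genes fitted the tissue names, with keratinocyte genes at 43500 to 84800 CPM (read counts scaled to 1e6 counted reads) in paw, sensory neuron genes at 6660 to 8250 CPM in DRG and oligodendrocyte genes at 2480 to 3190 CPM in cord. Some libraries stood apart. The 10 skeletal muscle markers summed to 176 CPM in IgG paw library 1 while the remaining paw libraries had 4390 to 32700 CPM. In DRG the same markers ranged from 71.6 to 6020 CPM within the day 1 group and from 71.8 to 4850 CPM within the IgG group. In IgG DRG library 1, 31.5% of the uniquely placed reads fell in no annotated gene, against 13.1 to 13.8% in the other DRG libraries. In cord, 5 neutrophil markers moved with the day, summing to 329, 50.9 and 80.9 CPM in the day 6 libraries and to 13.8, 15.7 and 27.3 CPM in the day 1 libraries, with day 6 library 1 highest.

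By number of genes, more receptors than ligands of the family were detected above low levels in these tissues. In CPM on a scale shared by all 24 libraries, the median over libraries was under 1 CPM for 12, 13 and 13 of the 18 ligands in paw, DRG and cord, and for 6, 11 and 12 of the 25 receptors. At 10 CPM or more stood 7 receptors in paw, 4 in DRG and 4 in cord, against 1, 2 and 1 ligands. Among the kept genes alone, the middle value of these medians was 1.26, 2.2 and 3.92 CPM for ligands in paw, DRG and cord. For receptors it was 3.77, 1.38 and 3.26 CPM, so it was higher than for ligands in paw only. The 7 genes kept in no tissue were 6 ligands and 1 receptor. Tnfsf4 (the OX40 ligand), Cd40lg and Cd70 had at most 3, 2 and 5 counts in any library. Tnfsf11 (RANKL) had at most 11 counts and Fasl at most 13, and the receptor Tnfrsf8 (CD30) at most 8. Tnfsf18 (the GITR ligand) had 29 counts in day 6 paw library 1 and at most 7 in any other library. Near the threshold, Cd27 was kept in DRG on libraries with 15, 15 and 12 counts, and Fasl was left out in cord, where 2 libraries reached 10 counts.

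Between genes, levels were compared in CPM per kilobase of exon. In paw the highest member was Tnfrsf1a, TNF receptor 1, with a median of 68.7 CPM per kilobase over 9 libraries, ahead of Tnfrsf12a at 25.7. Tnfrsf12a encodes Fn14, the receptor of the ligand TWEAK (Tnfsf12). Tnfrsf19 (TROY) had 10.7 and Tnfrsf21 (death receptor 6, DR6) 10.4 CPM per kilobase in paw. In DRG the order was led by Tnfrsf21, at 57.7 CPM per kilobase over 9 libraries, followed by Tnfrsf1a at 17.8 and by Tnfsf12 at 10.8, the highest ligand of the 18 on this scale. In cord Tnfrsf21 was again highest, at 32.7 CPM per kilobase over 6 libraries, with Tnfrsf1a at 12.1, Tnfrsf19 at 11.3, Tnfrsf12a at 7.63 and Tnfsf12 at 7.13.

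Ligands and receptors of a pair were not always found in the same tissue. Both genes of the TWEAK pair were kept in all 3 tissues. Tnfrsf11a, which encodes RANK, had medians of 18.3, 21.0 and 6.23 CPM in paw, DRG and cord, while the gene of its ligand RANKL was kept in none. Tnfrsf18 (GITR) had a median of 5.51 CPM in paw, with its ligand gene kept in none. Tnf was kept in paw alone, with a median of 1.56 CPM there, 0.181 CPM in DRG and 0.0994 CPM in cord, whereas both TNF receptor genes were kept in all 3 tissues. Of the genes for LTβR ligands, Ltb had medians of 0.626, 0.711 and 0.406 CPM in paw, DRG and cord, and Lta and Tnfsf14 were under 0.3 CPM in each.

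**Figure D1:**
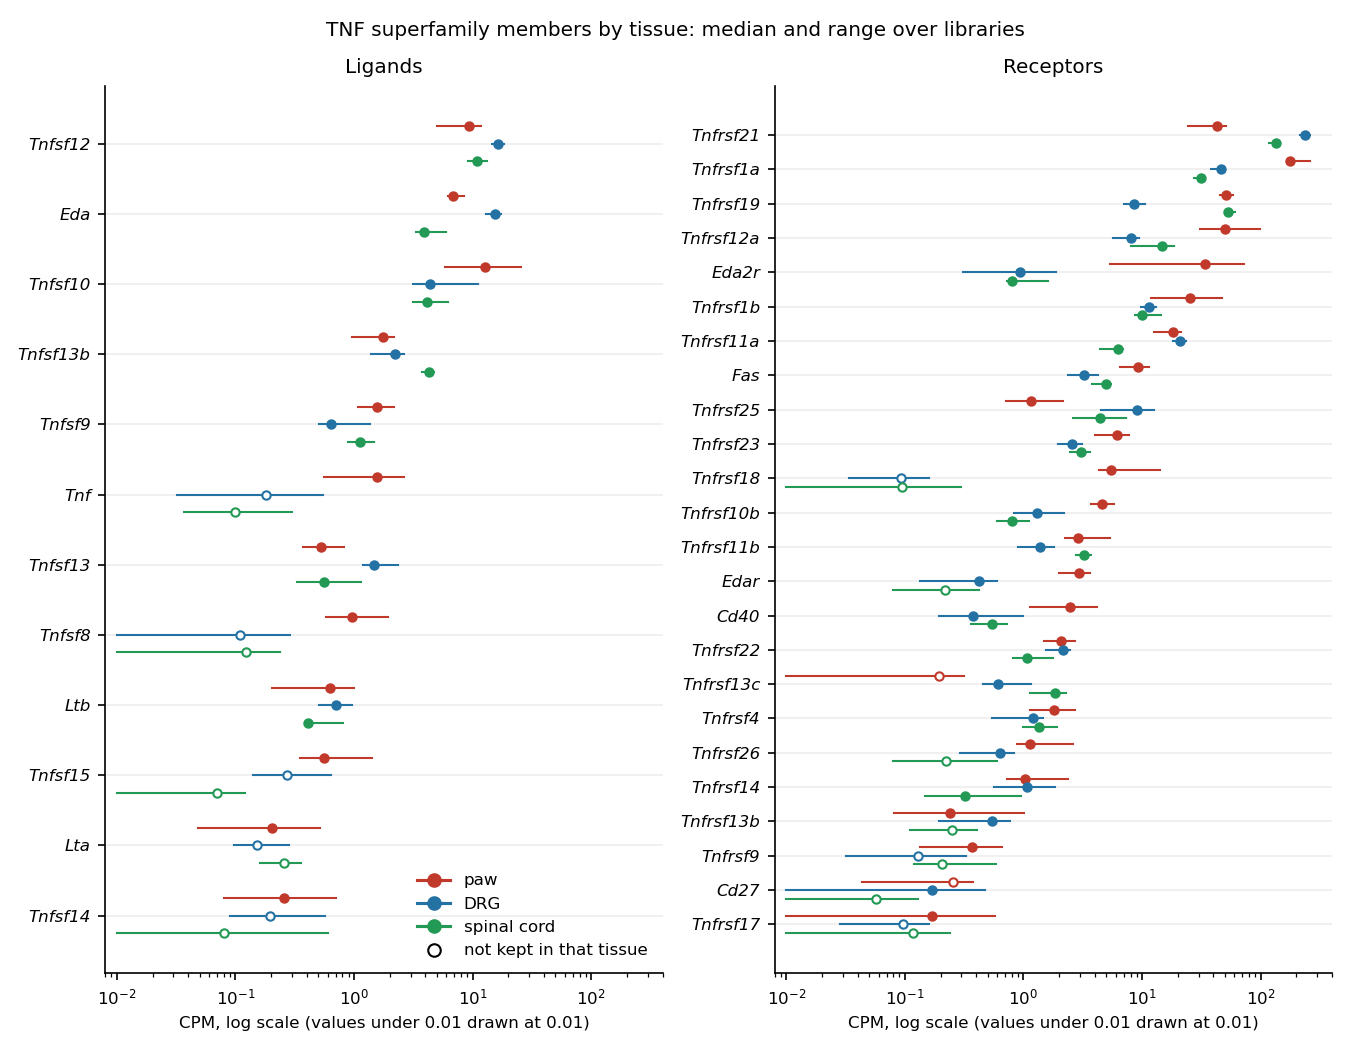
Levels of the 36 kept members by tissue, as CPM on a log axis (x) for each gene (y), with 12 ligands on the left and 24 receptors on the right. Points are medians and lines the range over 9 paw, 9 DRG and 6 spinal cord libraries, with open points where a gene was not kept in that tissue. Tnfrsf21 lies farthest right in DRG and cord and Tnfrsf1a in paw.

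The tissues were set against each other in groups with the same treatment. In IgG mice, 25 of the 37 members tested differed between paw and DRG, 17 higher and 8 lower in paw (edgeR quasi-likelihood test, Benjamini-Hochberg adjusted p under 0.05 over 16864 genes). Of all genes tested 80.7% passed the same test, 40.2% higher and 40.5% lower, so the family's share of 67.6% was not above that of genes in general. The largest differences towards paw were in Tnfrsf18, Eda2r, Tnfsf8 and Tnf.

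Tnfrsf18 (GITR, a co-stimulatory receptor of T cells) had 14.3, 6.55 and 4.72 CPM in the IgG paw libraries, against 0.0931, 0.0724 and 0.0957 CPM in the IgG DRG libraries. The DRG values rest on 2, 2 and 3 reads. The ratio of the summed counts, scaled to library size, was 96.7, with a counting interval of 46.7 to 242 (exact binomial, 95%, counting error only). The log2 fold change was 6.54 ± 0.57 (SE, as for all log2 fold changes here; edgeR adjusted p = 1.76e-09) and was 5.95 without IgG paw library 1, the library with little muscle RNA. Eda2r (XEDAR, a receptor of the ectodysplasin splice form A2) had 5.32, 43.5 and 34.0 CPM in IgG paw and 0.466, 0.941 and 0.510 CPM in IgG DRG, a log2 fold change of 5.41 ± 0.83 (adjusted p = 8.75e-06, edgeR). Its low paw value came from the same library 1, and whether muscle content bears on it was not tested. Tnfsf8 (the CD30 ligand) had 14, 23 and 23 counts in IgG paw and 1, 3 and 3 in IgG DRG, a ratio of 9.61 with a counting interval of 4.39 to 24.9, and an edgeR adjusted p of 0.000211. Tnf had 1.57, 1.82 and 0.888 CPM in IgG paw against 0.186, 0.181 and 0.159 CPM in IgG DRG, a log2 fold change of 3.00 ± 0.63 (adjusted p = 0.000223, edgeR).

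In the other direction, the largest differences were in receptors and in a ligand of the B cell branch. Tnfrsf25, which encodes death receptor 3, had 0.828, 1.33 and 1.09 CPM in IgG paw against 6.15, 9.13 and 5.26 CPM in IgG DRG, a log2 fold change of -2.65 ± 0.38 (adjusted p = 2.39e-06, edgeR). Tnfrsf21 had 51.4, 45.7 and 40.2 CPM in IgG paw against 259, 237 and 241 CPM in IgG DRG, a log2 fold change of -2.43 ± 0.12 (adjusted p = 1.42e-13, edgeR). DR6 is known as a regulator of axon degeneration. Tnfrsf13c, the receptor of the B cell survival factor BAFF, differed by -2.28 ± 0.60 on the log2 scale and Tnfsf13, the ligand APRIL, by -1.81 ± 0.34 (edgeR adjusted p = 0.00175 and 7.31e-05). Tnfsf13 and Tnfsf12 lie next to each other in the genome, and reads that overlap both genes are not counted for either.

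On day 1 after the agonist, DRG and cord differed in 20 of the 37 members tested, 13 higher and 7 lower in DRG. Of all genes 64.2% passed, 32.5% higher and 31.7% lower, against 54.1% of the members. Eda, the ectodysplasin ligand gene, had 17.3, 15.5 and 15.5 CPM in day 1 DRG and 3.32, 4.10 and 3.73 CPM in day 1 cord, a log2 fold change of 2.12 ± 0.16 (adjusted p = 9.9e-10, edgeR). Tnfrsf14, the receptor of LIGHT also called HVEM, had 1.52, 1.54 and 1.14 CPM in DRG against 0.148, 0.394 and 0.243 CPM in cord, a log2 fold change of 2.41 ± 0.53 (adjusted p = 0.000539, edgeR). Both groups were separate in each of these genes.

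Tnfsf15 (TL1A, the ligand of death receptor 3) and Tnfrsf26 were higher in DRG at low counts. Tnfsf15 had 20, 9 and 7 counts in day 1 DRG and 1, 0 and 2 in day 1 cord, a ratio of 9.86 with a counting interval of 3.12 to 50.0. Its log2 fold change of 3.16 ± 0.76 (edgeR adjusted p = 0.00118) was 2.57 without DRG library 1 and 4.05 without cord library 3. Tnfrsf26 had 16, 21 and 15 counts in DRG against 3, 2 and 5 in cord, a log2 fold change of 2.05 ± 0.54 (adjusted p = 0.00237, edgeR). It belongs to a mouse gene cluster with Tnfrsf22 and Tnfrsf23, whose sequences are alike, so the split of reads between them is uncertain.

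Tnfrsf19, a receptor known from neural progenitors and skin, had 10.6, 10.3 and 8.27 CPM in day 1 DRG and 50.4, 53.4 and 49.7 CPM in day 1 cord, a log2 fold change of -2.39 ± 0.10 (adjusted p = 1.88e-13, edgeR). Tnfrsf11b, the decoy receptor osteoprotegerin, had 1.58, 1.03 and 1.38 CPM in DRG against 3.43, 3.74 and 3.45 CPM in cord, a log2 fold change of -1.41 ± 0.24 (adjusted p = 3.54e-05, edgeR). Fasl, kept in neither tissue, had 1, 4 and 1 counts in DRG and 9, 9 and 13 in cord, a ratio of 0.159 with a counting interval of 0.0542 to 0.387. Its log2 fold change was -2.58 ± 0.63 (edgeR adjusted p = 0.00133) and -3.45 without DRG library 2. Tnfrsf13c was lower in DRG by a log2 fold change of -1.36 ± 0.46 (adjusted p = 0.0144, edgeR), a call that did not pass without DRG library 1 or 3 (adjusted p = 0.0505 and 0.0517).

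Within tissues, the question was whether the agonist moved the family to which its target belongs. In paw 1 day after the agonist, 0 of the 35 members tested passed in the edgeR quasi-likelihood test, against 0.00654% of all 15287 genes, which is 1 gene. At an unadjusted p under 0.05 there were 6 members, which is 17.1% of the members against 10.6% of all genes. Of these, 5 had higher values on day 1 (4.01% of all genes did) and 1 had lower values (6.63%). Lta, Tnfsf14, Tnfrsf13b and Tnfrsf17 were kept in paw through 1 group alone, Lta through day 1 and the other 3 through day 6, so their differences follow in part from the filter. Without these 4 genes, 5 of 31 members had an unadjusted p under 0.05, or 16.1%. DESeq2 called 2 of 26 members, Tnfsf10 and Tnfrsf21, and limma voom 0 of 35. Over all genes DESeq2 called 201, where edgeR called 1. The median log2 fold change was 0.23 over the members and 0.01 over all genes, with 24 members above and 11 below 0. The smallest adjusted p was 0.357.

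Tnfsf10, the gene of the death ligand TRAIL, had the smallest p of the members in paw on day 1. It stood at 11.2, 25.6 and 13.8 CPM in day 1 paw and at 5.44, 7.69 and 8.45 CPM in IgG paw, so that the groups did not overlap. The log2 fold change was 1.23 ± 0.32, with edgeR adjusted p = 0.357 and DESeq2 adjusted p = 0.0158. TRAIL binds osteoprotegerin as well as its death receptor, and Tnfrsf11b had 4.61, 5.30 and 3.06 CPM in day 1 paw against 2.13, 2.22 and 2.79 CPM in IgG paw, a log2 fold change of 0.86 ± 0.24 (adjusted p = 0.364, edgeR). Tnfrsf10b, the mouse TRAIL death receptor, was at 4.52, 4.26 and 5.51 CPM in day 1 paw and 4.59, 4.85 and 3.61 CPM in IgG paw, values that overlap.

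Tnfrsf21 was the member with lower values. It had 29.1, 35.9 and 23.1 CPM in day 1 paw against 47.5, 45.3 and 39.1 CPM in IgG paw, a log2 fold change of -0.58 ± 0.15 (adjusted p in edgeR 0.361, DESeq2 adjusted p = 0.0497). Tnfsf8 had 1.91, 1.04 and 1.68 CPM in day 1 paw against 0.564, 0.946 and 0.904 CPM in IgG paw, a log2 fold change of 0.94 ± 0.37 (adjusted p = 0.441, edgeR). Lta, for lymphotoxin alpha, was at 18, 14 and 12 counts in day 1 paw and 4, 9 and 5 counts in IgG paw. Tnfrsf12a had 97.3, 71.3 and 46.3 CPM in day 1 paw and 46.5, 50.6 and 48.4 CPM in IgG paw, with day 1 library 3 below all 3 IgG libraries. Neither of the last 2 genes passed (edgeR adjusted p = 0.469 and 0.459).

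On day 6 in paw, 0 of 35 members passed (edgeR), against 0.706% of all genes. At an unadjusted p under 0.05 there were 6, or 17.1% against 9.74% of all genes, 5 with higher values on day 6 (6.12% of all genes) and 1 with lower values (3.62%). The day 6 and IgG libraries did not overlap in 11 members, 31.4% against 14.1% of all genes, 8 of them higher (8.22% of all genes) and 3 lower (5.87%). These counts include members kept through the day 6 group alone (Tnfrsf13b, Tnfrsf17 and Tnfsf14), and without the 4 genes kept through 1 group, 3 of 31 members had an unadjusted p under 0.05 (9.68%) and 7 did not overlap (22.6%). DESeq2 called 0 of 37 members and limma voom 0 of 35. The median log2 fold change was 0.37 over the members and -0.01 over all genes, and the smallest adjusted p was 0.175. Without the 4 genes the members' median was 0.22.

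The B cell receptor genes of the family had the smallest p. Tnfrsf13b (TACI) had 24, 42 and 12 counts in day 6 paw against 2, 2 and 6 in IgG paw, a log2 fold change of 2.31 ± 0.60 (adjusted p = 0.175, edgeR). Tnfrsf17 (BCMA, a receptor of plasma cells) had 20, 21 and 16 counts in day 6 paw against 4, 3 and 2 in IgG paw, a log2 fold change of 2.06 ± 0.61 (adjusted p = 0.244, edgeR). TACI and BCMA bind BAFF (Tnfsf13b) and APRIL (Tnfsf13). Both receptor genes were kept in paw through the day 6 group alone, so higher day 6 counts were a condition of their being kept. Of the 7 B and plasma cell markers listed, 5 were in the files. Cd79b had 23, 14 and 21 counts in day 6 paw and 4, 10 and 5 in IgG paw, and Cd79a, Ms4a1 and Pax5 had at most 2 in any paw library. Their part in the values of Tnfrsf13b and Tnfrsf17 was not tested.

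Tnfrsf1b, TNF receptor 2, had 46.5, 39.2 and 24.0 CPM in day 6 paw and 16.1, 26.4 and 11.7 CPM in IgG paw, a log2 fold change of 1.02 ± 0.35 (adjusted p = 0.353, edgeR). Day 6 library 3 lay below the highest IgG library. Cd40, a receptor of antigen-presenting cells, had 3.69, 3.94 and 2.86 CPM in day 6 paw and 2.09, 2.43 and 1.10 CPM in IgG paw, without overlap (log2 fold change 0.90, edgeR adjusted p = 0.379). The macrophage and monocyte markers, 12 of 13 in the files and all 12 measured, summed to 890 to 1370 CPM in day 6 paw and 301 to 422 CPM in IgG paw. The T cell markers, 10 of 12 in the files, summed to 8.85 to 9.04 CPM in day 6 paw and 4.24 to 6.77 CPM in IgG paw. Only 5 of these T cell markers reached 10 counts in 3 paw libraries. Their part in these values was not tested. Tnfsf10 had 17.0, 12.1 and 12.1 CPM in day 6 paw, all above the 5.44, 7.69 and 8.45 CPM of IgG paw, a log2 fold change of 0.93 ± 0.32 (adjusted p = 0.330, edgeR). Lta had 4, 2 and 4 counts in day 6 paw against 4, 9 and 5 in IgG paw (edgeR adjusted p = 0.392), and was lower in CPM in each day 6 library than in each IgG library.

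Between the days, day 6 against day 1 in paw, 0 of 35 members passed in edgeR, against 1.03% of all genes. At an unadjusted p under 0.05 there were 9, or 25.7% against 14% of all genes, 5 with higher values on day 6 (8.57% of all genes) and 4 with lower values (5.41%). All 4 genes kept through 1 group were among the 9, and without them the count was 5 of 31 members, or 16.1%. DESeq2 called 3 of 37 members and limma voom 3 of 35, in both cases Lta, Tnfrsf17 and Tnfrsf12a. Among all genes DESeq2 called 731 and limma voom 623, where edgeR called 157. Lta, with 4, 2 and 4 counts on day 6 against 18, 14 and 12 on day 1, had a log2 fold change of -2.34 ± 0.46 (adjusted p in edgeR 0.0594, DESeq2 0.0236, limma voom 0.0168). It was kept in paw through the day 1 group alone. Tnfrsf17, with 20, 21 and 16 counts on day 6 against 2, 5 and 0 on day 1, had a log2 fold change of 2.69 ± 0.64 (adjusted p = 0.0969, edgeR). Tnfrsf12a had 30.7, 36.2 and 41.9 CPM on day 6, all below the 97.3, 71.3 and 46.3 CPM of day 1, a log2 fold change of -0.98 ± 0.24 (adjusted p = 0.105, edgeR). Tnfrsf13b had 24, 42 and 12 counts on day 6 against 4, 8 and 2 on day 1, a log2 fold change of 2.12 ± 0.57 (adjusted p = 0.146, edgeR). The remaining members under an unadjusted p of 0.05 were Tnfrsf21, Cd40 and Tnfsf14, with higher values on day 6, and Tnfsf8 and Tnfrsf11b, with lower values on day 6 (edgeR adjusted p of 0.193 to 0.283). Tnfrsf21 had 44.6, 40.4 and 40.4 CPM on day 6 and 29.1, 35.9 and 23.1 CPM on day 1.

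**Figure D2:**
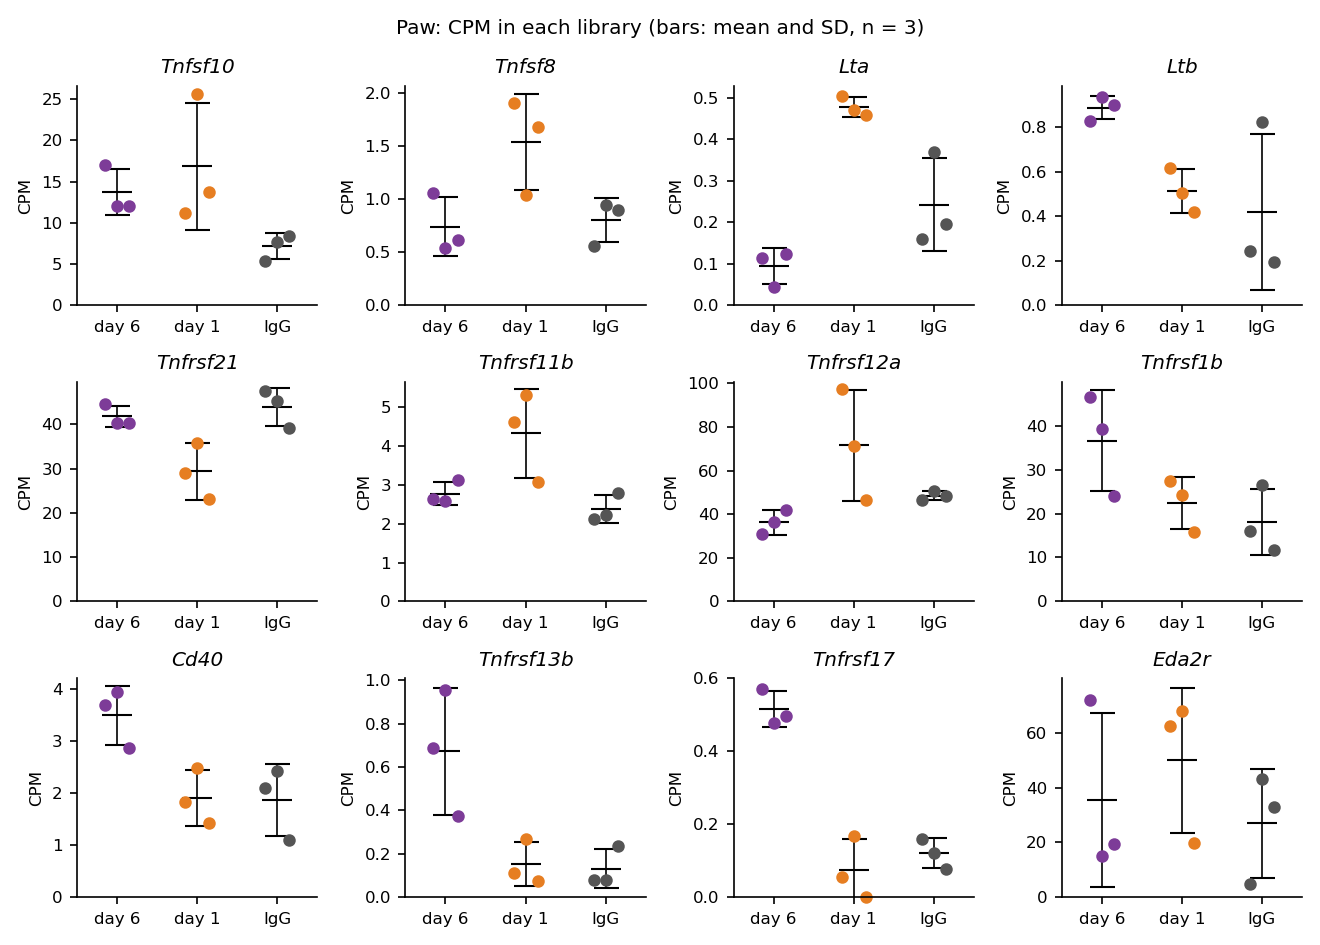
CPM (y) of 12 members in each paw library, by group (x: day 6, day 1, IgG), with 1 point per library and bars for the mean and SD (n = 3). Lta is low in all 3 day 6 libraries and Tnfrsf17 is high in them, while Eda2r varies from 4.91 to 72.0 CPM without following the groups.

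The TRAIL gene had the smallest p of the members on day 1 against IgG, in paw and in DRG, and Lta had it between the days in paw. The 250 bases upstream of their start sites are shown for that reason (RefSeq, GRCm38.p6, whereas the reads were placed on mm9). Capitals mark matches to TTCNNNGAA, the GAS pattern bound by STAT factors, which reads the same on both strands. The Tnfsf10 stretch lies at chr3:27316827-27317076 on the plus strand and the Lta stretch at chr17:35205352-35205601 on the minus strand.
Tnfsf10: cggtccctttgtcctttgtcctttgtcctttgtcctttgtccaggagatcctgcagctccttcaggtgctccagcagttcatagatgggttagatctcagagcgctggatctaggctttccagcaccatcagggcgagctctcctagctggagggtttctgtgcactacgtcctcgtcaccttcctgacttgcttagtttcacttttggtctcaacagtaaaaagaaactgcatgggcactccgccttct
Lta: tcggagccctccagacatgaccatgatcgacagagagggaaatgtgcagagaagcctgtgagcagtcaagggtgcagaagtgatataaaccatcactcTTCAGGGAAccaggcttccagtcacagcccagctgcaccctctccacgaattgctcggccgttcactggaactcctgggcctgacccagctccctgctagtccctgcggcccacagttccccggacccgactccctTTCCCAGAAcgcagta
The Lta stretch holds the pattern at positions -152 and -16, and the Tnfsf10 stretch holds none of the 3 patterns searched. Among the 29 kept members with a promoter entry, TTCNNNGAA on either strand was found in 8, against 7.02% of the 32851 mouse promoters of this length. The ISRE-type pattern bound by interferon regulatory factors (GAAA, any 2 bases and GAAA again) was found on either strand in 4 (Tnfrsf14, Tnfrsf17, Tnfrsf1b and Tnfsf13b), against 2.98%. The κB consensus, bound by NF-κB, was found on either strand in 3 (Ltb, Tnfrsf25 and Tnfrsf9), against 7.25%. A member was counted when any of its promoter entries matched, whereas the percentages are of single promoters. Genes with several entries had more chances, so the counts and percentages are not like for like and show no excess or lack. The patterns may overlap each other, and a match is a match of letters alone.

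In DRG 1 day after the agonist, 0 of 28 members passed (edgeR), against 0.168% of all 15461 genes. At an unadjusted p under 0.05 there were 3, or 10.7% against 7.4% of all genes, and the groups did not overlap in 6, or 21.4% against 13.2%. DESeq2 called 1 of 32 members, Tnfsf10, and limma voom 0 of 28. Over all genes DESeq2 called 131, where edgeR called 26. The median log2 fold change was 0.08 over the members and 0 over all genes. Tnfsf10 had 9.03, 11.3 and 5.37 CPM in day 1 DRG and 4.27, 4.40 and 3.19 CPM in IgG DRG, without overlap. Its log2 fold change was 1.12 ± 0.26, with edgeR adjusted p = 0.254 and DESeq2 adjusted p = 0.00674. Without day 1 library 3, its lowest day 1 value, the log2 fold change was 1.36 and the edgeR adjusted p was 0.0224. Leaving out its lowest day 1 value raises the difference by construction. Across 16 alternative settings the log2 fold change ranged from 0.86 to 1.36. The adjusted p ranged from 0.00674 to 0.561 (edgeR, DESeq2 or limma voom), and only DESeq2 and this omission passed.

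The other DRG members on day 1 had smaller or more scattered differences. Tnfrsf21 had 215, 222 and 234 CPM in day 1 DRG against 261, 239 and 243 CPM in IgG DRG, a log2 fold change of -0.15 ± 0.05 (adjusted p = 0.524, edgeR). Eda2r had 1.89, 0.943 and 1.22 CPM in day 1 DRG and 0.470, 0.947 and 0.515 CPM in IgG DRG, overlapping in 1 library (log2 fold change 1.06 ± 0.45, edgeR adjusted p = 0.655). Tnfrsf10b, the TRAIL receptor, had 1.76, 1.55 and 1.39 CPM in day 1 DRG and 1.08, 1.20 and 0.837 CPM in IgG DRG, without overlap (log2 fold change 0.60 ± 0.27, edgeR adjusted p = 0.669). Tnfrsf1a differed by 0.01 on the log2 scale and Tnfrsf1b by 0.16.

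On day 6 in DRG, 0 of 28 members passed in edgeR, and 0% of all genes did. DESeq2 called 0 of 42 members and limma voom 0 of 28. At an unadjusted p under 0.05 there was 1 member, Tnfrsf10b, or 3.57% against 3.6% of all genes. It had 1.32, 2.23 and 1.24 CPM in day 6 DRG and 1.08, 1.20 and 0.837 CPM in IgG DRG, a log2 fold change of 0.62 ± 0.27 (adjusted p = 0.995, edgeR). The next 3, Tnfrsf14, Tnfrsf26 and Tnfrsf11b, had log2 fold changes of -0.59 ± 0.32, -0.60 ± 0.40 and -0.42 ± 0.29, each with edgeR adjusted p = 0.995. The median was -0.01 over the members and 0 over all genes.

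Between day 6 and day 1 in DRG, 0 of 28 members passed (edgeR), against 0.103% of all genes, and 3 had an unadjusted p under 0.05, or 10.7% against 6.83%. DESeq2 called 0 of 32 members and limma voom 0 of 28. Tnfsf10 had 5.51, 4.16 and 3.82 CPM on day 6 and 9.03, 11.3 and 5.37 CPM on day 1, with 1 day 6 library above the lowest day 1 library (log2 fold change -0.93 ± 0.26, edgeR adjusted p = 0.433). Eda2r differed by -1.06 ± 0.44 on the log2 scale, Tnfrsf19 by -0.27 ± 0.12 and Tnfrsf14 by -0.67 ± 0.31 (edgeR adjusted p = 0.694, 0.724 and 0.738).

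**Figure D3:**
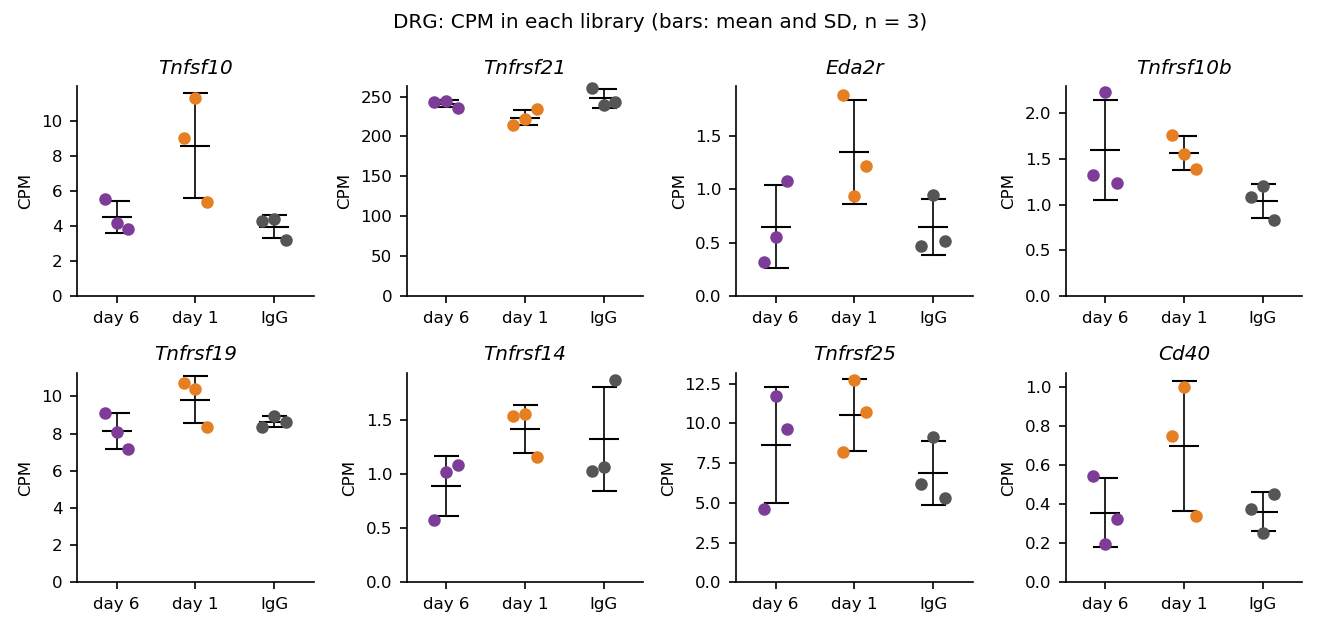
CPM (y) of 8 members in each DRG library, by group (x: day 6, day 1, IgG), with 1 point per library and bars for the mean and SD (n = 3). The day 1 points of Tnfsf10, between 5.37 and 11.3 CPM, lie above the IgG points, and Tnfrsf21 stays between 215 and 261 CPM in all 9 libraries.

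In spinal cord, day 6 against day 1, 0 of 25 members passed in edgeR, and 0% of all 15096 genes did. At an unadjusted p under 0.05 there were 3, or 12% against 9.7% of all genes. DESeq2 called 0 of 41 members and limma voom 0 of 25. The median log2 fold change was 0.18 over the members and 0.01 over all genes. Tnfrsf1a had 34.1, 33.2 and 34.0 CPM on day 6 and 28.5, 31.4 and 29.7 CPM on day 1, without overlap, a log2 fold change of 0.18 ± 0.07 (adjusted p = 0.491, edgeR). Tnfrsf19 had 64.3, 57.8 and 56.5 CPM on day 6 against 52.2, 55.4 and 50.9 CPM on day 1, a log2 fold change of 0.17 ± 0.07 (adjusted p = 0.503, edgeR). Tnfrsf25 had 4.69, 4.57 and 7.64 CPM on day 6 and 3.29, 4.62 and 2.70 CPM on day 1 (log2 fold change 0.66 ± 0.27, edgeR adjusted p = 0.504). Eda had 6.28, 3.58 and 5.87 CPM on day 6 and 3.44, 4.25 and 3.82 CPM on day 1, with day 6 library 2 apart from the other 2. Its log2 fold change was 0.44 ± 0.23 (edgeR adjusted p = 0.541), and without that library 0.66, with an edgeR adjusted p of 0.0494. Across 15 alternative settings the log2 fold change was 0.20 to 0.66, and only that omission passed. The highest adjusted p among them was 0.957 (edgeR, DESeq2 or limma voom). Tnfsf14 (LIGHT) had 14 counts in day 6 cord library 1, the library highest in neutrophil markers, and at most 3 in the other 5. The neutrophil markers were higher in all 3 day 6 libraries than in all 3 day 1 libraries, and their part in the cord values was not tested.

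**Figure D4:**
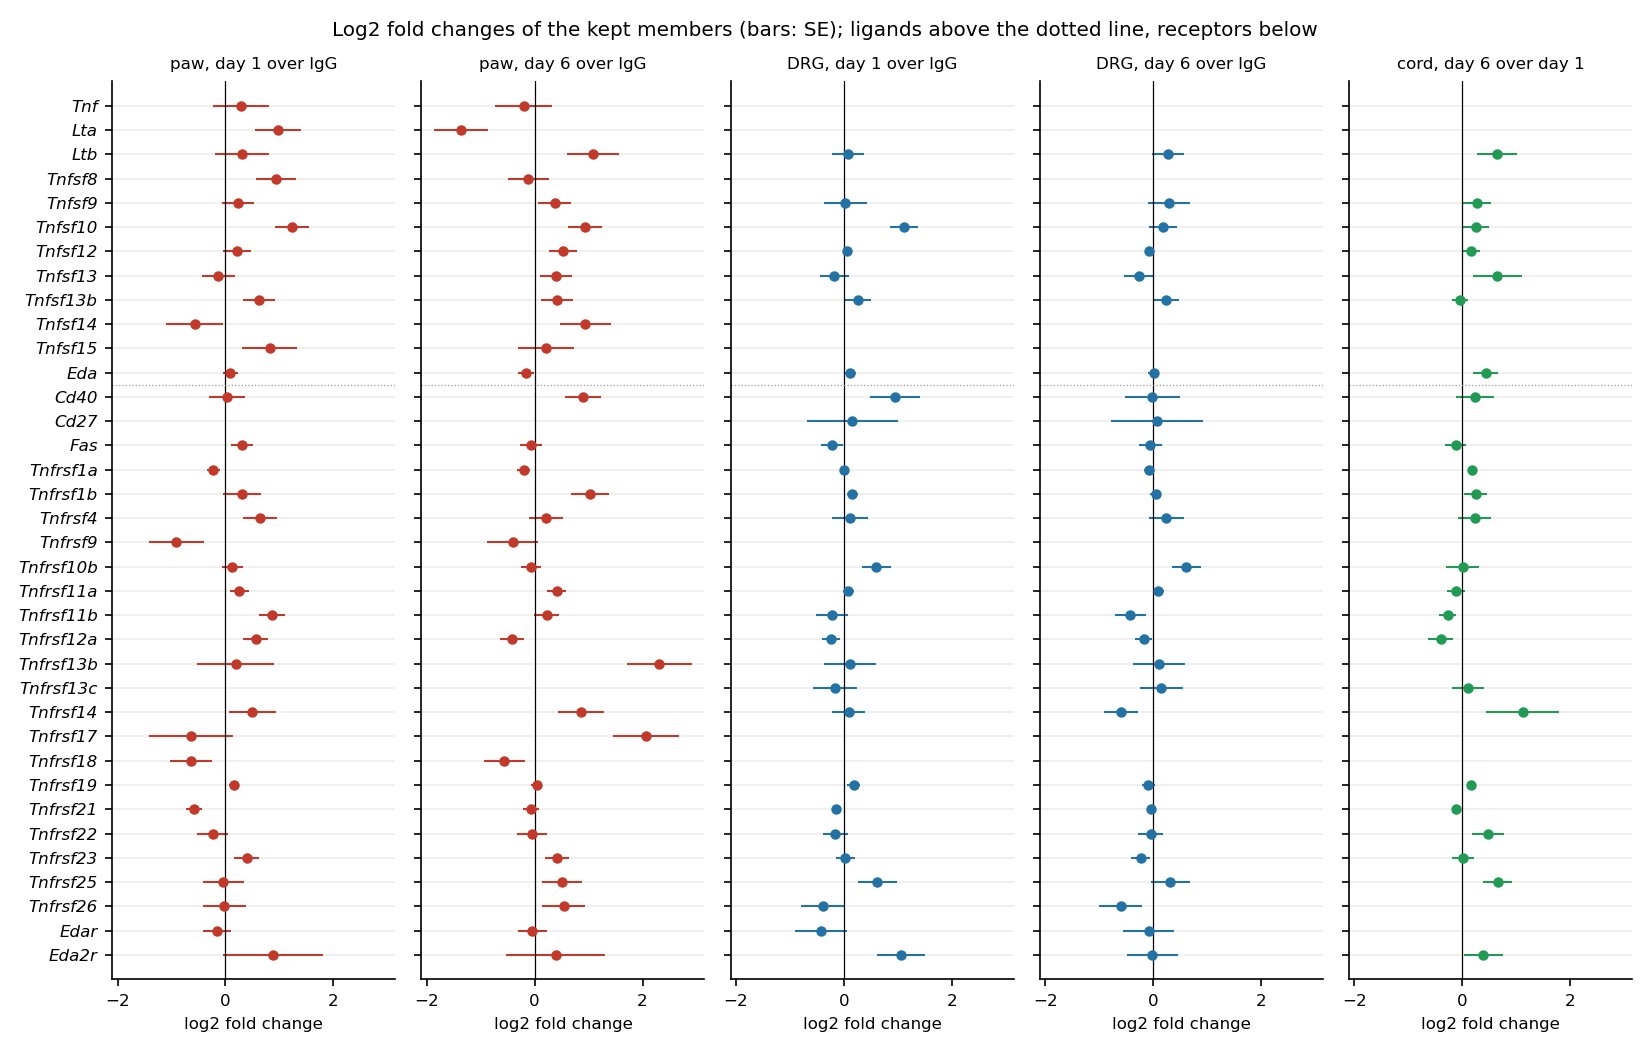
Log2 fold changes (x) of each kept member (y) in 5 comparisons within paw, DRG and spinal cord, with bars for the SE, the ligands above the dotted line and the receptors below it. The widest values are Tnfrsf13b at 2.31 and Tnfrsf17 at 2.06 in paw on day 6, and most DRG points lie near 0. Both of these genes were kept in paw through the day 6 group alone, so their values follow in part from the filter.

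Whether the paw and DRG responses differed was tested as the paw response minus the DRG response in 1 fit. For day 1, 0 of 36 members passed in edgeR (0% of all 16461 genes), and 3 had an unadjusted p under 0.05, or 8.33% against 9.68% of all genes. The smallest p were those of Tnfrsf11b, Tnfrsf21 and Tnfrsf12a, with differences of 1.07 ± 0.38, -0.44 ± 0.16 and 0.80 ± 0.30 on the log2 scale (edgeR adjusted p = 0.412, 0.418 and 0.425). The Tnfsf10 responses, 1.23 in paw and 1.12 in DRG, differed by 0.10 on that scale. For day 6, 0 of 36 members passed, against 0.498% of all genes, and 7 had an unadjusted p under 0.05, or 19.4% against 7.73%. The smallest p were those of Lta, Tnfrsf13b and Tnfrsf14, with differences of -1.89 ± 0.66, 2.19 ± 0.81 and 1.44 ± 0.56 (edgeR adjusted p = 0.379, 0.437 and 0.485). In paw, Lta was kept through the day 1 group alone and Tnfrsf13b through the day 6 group alone. Lta was not kept in DRG. The share of 19.4% may therefore follow in part from the filter, and it was not recomputed without such genes. DESeq2 and limma voom called 0 of 36 for both days.

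The adaptors, kinases and inhibitors downstream of the receptors were followed as a list of 45 genes, 43 of them in the files. None of the 43 tested in paw passed (edgeR) in any of the 3 comparisons. In each, 9 had an unadjusted p under 0.05, or 20.9%, against 10.6% of all genes on day 1, 9.74% on day 6 and 14% between the days. Of the 41 tested in cord 0 passed, with 3 at an unadjusted p under 0.05 (7.32% against 9.7% of all genes). In DRG 0 of 41 passed on day 1 (7 at an unadjusted p under 0.05, all higher, or 17.1% against 7.4% of all genes), with a smallest adjusted p of 0.0515, for Tnfaip3. On day 6 against IgG in DRG 0 of 41 passed, with 0 at an unadjusted p under 0.05 (3.6% of all genes). Tnfaip3 encodes A20, a ubiquitin-editing inhibitor of NF-κB. Between day 6 and day 1 in DRG, Tnfaip3 was the 1 gene of the list past the threshold. It was lower on day 6, by a log2 fold change of -1.05 ± 0.16 (adjusted p = 0.0375, edgeR). The call was lost in limma voom (adjusted p = 0.0730) and when any day 6 or day 1 library except day 1 library 3 was left out (adjusted p = 0.133 to 0.207).

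Genes known to be induced by TNF and NF-κB were followed as a list of 40, which includes the Relb, Nfkb2 and chemokine genes already seen to respond in these data and is no independent evidence. In paw on day 1, 1 of 37 was higher (Relb, a non-canonical NF-κB subunit) and 0 lower, with a median log2 fold change of 0.03. There were 18 of the 37 at an unadjusted p under 0.05, or 48.6% against 10.6% of all genes, 15 with higher and 3 with lower values. In paw on day 6, 3 of 37 were higher (Relb, Nfkb2 and Nfkbie) and 1 was lower (Sod2, the mitochondrial superoxide dismutase), with a median of -0.10. The 4 are 10.8% of the list, against 0.706% of all genes, and 12 had an unadjusted p under 0.05, 5 with higher and 7 with lower values (32.4% against 9.74%). In DRG on day 1, 7 of 31 were higher and 0 lower (22.6% against 0.168% of all genes), with a median of 0.47, and 13 had an unadjusted p under 0.05 (41.9% against 7.4%). The 7 higher were the adhesion molecule genes Icam1 and Vcam1, the chemokine gene Cx3cl1, the cytokine gene Csf1, and Relb, Nfkb2 and Nfkbie. On day 6 against IgG in DRG, 0 of 31 passed (edgeR), with 2 at an unadjusted p under 0.05 (6.45% against 3.6%). Between day 6 and day 1, 6 of 31 were lower in DRG (19.4% against 0.103% of all genes called), and in paw 3 of 37 were lower (Relb, Sod2 and Sele, the E-selectin gene, or 8.11% against 1.03%). In cord 0 of 26 passed, with 7 at an unadjusted p under 0.05 (26.9% against 9.7%).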

How the data were processed

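Polyadenylated RNA of 24 libraries was sequenced with a stranded kit. Raw counts of reads per gene were deposited by the authors, made with bcl2fastq, TopHat2 on mm9 and HTSeq per the submitters' processing notes. Versions, annotation and strand setting are not given in the sources used here, so antisense reads may be counted. Each file had 22609 genes and 5 summary lines, which were removed.

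Counts were tested in edgeR 4.0.16 (quasi-likelihood, TMM, default filter, robust; R 4.3.3) per tissue, with 1 fit to paw and DRG for differences of response and 1 fit to all libraries between tissues. P-values were 2-sided and Benjamini-Hochberg adjusted over all genes, with a threshold of 0.05. CPM were TMM-normalised within tissue, or over all libraries between tissues. Errors are SE for log2 fold changes. Exon lengths are from GENCODE M21. The pipeline was tested on simulated data.

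Members, lists and tests were chosen with earlier results of these data known. Named were the 4 members of smallest p per comparison within a tissue (3 per difference of response), the 4 called members of largest change in each direction between tissues, and pathway genes past the threshold; some others are named after their values were seen. A marker gene of a cell type list is not reported here. No 2 replicates were identical in 24 pairs. Replicate numbers are shared by groups. Same-numbered libraries deviated together (correlations of 0.34 to 0.54, all pairs above 0.1) only for IgG paw and IgG DRG. The edgeR tests reported used group alone and did not use these pairs, which entered only in the replicate block. Alternatives were RLE and upper-quartile scaling, other filters on low counts, limma voom (3.58.1), DESeq2 (1.42.0), a replicate block, a skeletal muscle covariate, leaving out each library, and fits of only the 2 groups in a comparison.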

Additional observations from a re-analysis of the deposited data

How the results depend on the processing

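Of 772 recomputed values of the genes named, 750 kept their side of the threshold, 12 passed only under the alternative, 10 were lost and 0 reversed. Members called within tissues numbered 0 in edgeR. DESeq2 called 2 for paw on day 1, 3 for paw between day 6 and day 1, and 1 for DRG on day 1, and limma voom called 3 for paw between day 6 and day 1. Among all genes these fits called 201, 731, 131 and 623, where edgeR called 1, 157, 26 and 157. With the skeletal muscle covariate 1 was called for paw between day 6 and day 1 (Lta, log2 fold change -2.18, adjusted p = 0.0442). Leaving out each library gave 0 to 1 for DRG on day 1 and 0 to 1 for cord, and 0 for the other comparisons within tissues. Between tissues the count was 21 to 26 for paw against DRG and 18 to 26 for DRG against cord. With the replicate block, 0 members were called in each comparison within a tissue, 26 for paw against DRG and 21 for DRG against cord, and no named gene changed its call. For Tnfaip3 in DRG between the days, the adjusted p was 0.112 with the muscle covariate and 0.109 in a fit of the groups compared. For a gene at a few counts, as for Lta and Tnfrsf17, depth limits what 3 libraries per group can show, and a p that misses the threshold does not show that values were equal. The cause of the differences between tools was not tested.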
